A study of Homo sapiens with 16 samples.

Results

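The 32 genes described here encode the enzymes of cholesterol and fatty acid synthesis and the proteins that sense sterols. They were taken by gene symbol, with the biotype protein-coding, from a named list, and all 32 were found among the 58735 genes listed for each line. The lines, BxPC3 and PANC-1, are established cultures of human pancreatic ductal adenocarcinoma. Of the 32, 7 act between acetyl-CoA and farnesyl diphosphate, 11 in the squalene and sterol steps, 6 are regulators or a sterol carrier, and 8 belong to the fatty acid and lipid branch. Poly-A-enriched RNA was sequenced from BxPC3 cells treated with gemcitabine, untreated BxPC3 controls, PANC-1 cells treated with gemcitabine and untreated PANC-1 controls, with 4 libraries in each of the 4 groups. Gemcitabine is a deoxycytidine analogue that blocks DNA synthesis. No allele or agent other than gemcitabine is named, and neither dose nor duration is given in the labels. The labels do not say whether replicates were grown separately, so the p-values speak for the spread among these libraries alone, and that spread may be technical.

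Cells build cholesterol from acetyl-CoA through mevalonate, isoprenoid diphosphates, squalene and lanosterol. Fatty acids are built from the same acetyl-CoA through malonyl-CoA, then elongated and desaturated. The transcription factors SREBP-1 and SREBP-2, encoded by SREBF1 and SREBF2, are held in the endoplasmic reticulum by SCAP and the INSIG proteins when sterols are plentiful. When sterols fall, SCAP escorts them to the Golgi, where proteases release the part that enters the nucleus and switches on genes of both branches. SREBP-2 is known chiefly for the cholesterol genes, and the SREBP-1c form of SREBF1 for the fatty acid genes.

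The promoters of 28 of the 32 genes matched the RefSeq table of GRCh38.p14, which gives a window of 300 bases per annotated start, 250 before and 50 after it. Below are the 250 bases before 1 annotated start each for 2 mevalonate genes that rose with gemcitabine in BxPC3. The same is given for 3 genes that fell there, both SREBP genes and SCD. Of several annotated starts, the one with most matches to the motifs below was taken. That choice applied to HMGCS1 (2 starts) and IDI1 (3 starts). All starts shown lie inside the listed span of their gene, and for IDI1 the whole window does. Each of the genes that fell had 1 start, so motif numbers cannot be compared between the 2 directions. The windows are shown so that the letters of promoters of pathway genes can be set beside changes in opposite directions. Whether the promoter at each start shown answers to sterols was not tested, and the SREBF1 window holds neither TCACNCCAC nor CCAAT. Whether the SREBP-1c form starts at that window was not tested, so the missing motifs speak for that window alone. Capitals mark matches on either strand to TCACNCCAC (the sterol regulatory element), CCAAT (the NF-Y box, ATTGG on the other strand), CACGTG (the E-box) and GGGCGG (the SP1 box, CCGCCC on the other strand).
HMGCS1, chr5:43313413-43313662, minus strand: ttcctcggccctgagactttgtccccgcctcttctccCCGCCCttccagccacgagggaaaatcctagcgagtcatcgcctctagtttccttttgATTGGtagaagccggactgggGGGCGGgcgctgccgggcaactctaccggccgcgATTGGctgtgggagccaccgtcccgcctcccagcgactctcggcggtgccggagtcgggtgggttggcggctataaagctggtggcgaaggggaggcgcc
IDI1, chr10:1048887-1049136, minus strand: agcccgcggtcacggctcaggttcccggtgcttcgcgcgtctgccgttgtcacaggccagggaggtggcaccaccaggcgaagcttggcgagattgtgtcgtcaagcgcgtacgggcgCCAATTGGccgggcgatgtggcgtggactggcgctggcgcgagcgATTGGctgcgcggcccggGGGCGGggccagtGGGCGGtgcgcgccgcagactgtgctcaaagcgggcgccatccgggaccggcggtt
SREBF2, chr22:41832855-41833104, plus strand: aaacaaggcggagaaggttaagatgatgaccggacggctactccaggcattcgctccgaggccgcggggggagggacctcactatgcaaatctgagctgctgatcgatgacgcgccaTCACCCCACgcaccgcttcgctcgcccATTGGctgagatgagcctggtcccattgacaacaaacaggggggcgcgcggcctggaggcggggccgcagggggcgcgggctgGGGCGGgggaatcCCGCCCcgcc
SREBF1, chr17:17836987-17837236, minus strand: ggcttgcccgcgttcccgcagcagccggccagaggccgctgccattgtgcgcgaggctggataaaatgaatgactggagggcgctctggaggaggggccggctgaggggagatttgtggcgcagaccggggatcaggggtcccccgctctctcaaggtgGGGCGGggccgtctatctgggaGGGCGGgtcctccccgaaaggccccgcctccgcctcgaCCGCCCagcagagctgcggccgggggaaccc
SCD, chr10:100346983-100347232, plus strand: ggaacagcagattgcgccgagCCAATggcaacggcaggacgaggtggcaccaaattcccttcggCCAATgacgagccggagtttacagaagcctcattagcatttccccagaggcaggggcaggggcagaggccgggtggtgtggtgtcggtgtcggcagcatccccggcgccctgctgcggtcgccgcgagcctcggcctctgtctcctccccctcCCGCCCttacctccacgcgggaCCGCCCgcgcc
In the whole windows CCAAT was found for 20 of the 28 genes (71.4%), against 42.1% of 15843 protein-coding genes and 34.6% of all 35116 windows in the table. GGGCGG was found for 27 of the 28 (96.4%), against 64.3% of protein-coding genes and 45.0% of windows. TCACNCCAC was found for SREBF2 only (3.57%), against 1.51% of protein-coding genes and 1.13% of windows, and CACGTG for INSIG1, LSS, SC5D and SCAP (14.3%), against 10.9% and 7.26%. A gene with several windows was counted once if any of them held the motif, matches could overlap as in the IDI1 window, and no share was tested.

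Between 22152034 and 37777222 reads per library fell in listed genes. Levels are given as FPKM, fragments per kilobase scaled to library size, and log2 changes were computed after adding 1 to each FPKM, which makes changes of low genes look smaller. On a 1 kb transcript 3 reads equalled 0.0803 to 0.138 FPKM, and every member had at least 125 reads in every library. SMAD4, which BxPC3 is known to lack, was without a read in all 8 BxPC3 libraries and had 3.03 to 4.04 FPKM in the 8 of PANC-1. The epithelial markers KRT8, KRT18, KRT19 and EPCAM stood at 15.3 FPKM or more in every library, and the markers of leukocytes (PTPRC), endothelium (PECAM1) and fibroblasts (PDGFRB) at 0.857 FPKM or less. Some of these markers moved with gemcitabine, and their part in the results below was not tested. PECAM1 averaged 0.132 ± 0.0484 FPKM with gemcitabine and 0.756 ± 0.105 FPKM in BxPC3 controls, without overlap (log2 change -0.63 with no filter, limma adjusted p = 5.43e-05). KRT19 fell in BxPC3 (-0.47, adjusted p = 0.000282) and rose in PANC-1 (1.25, adjusted p = 0.00012), KRT8 and KRT18 rose in both, and EPCAM rose in BxPC3 (0.32) and did not pass in PANC-1. Gemcitabine replicate 1 of PANC-1 stood apart from the other 3 libraries of its group by base composition: its median log2 deviation was 0.452 for the most GC-rich quartile of transcripts and -0.423 for the most GC-poor. PANC-1 results are therefore also given without that library. Bulk RNA cannot tell fewer cells with a transcript apart from less of it per cell.

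**Figure D1:**
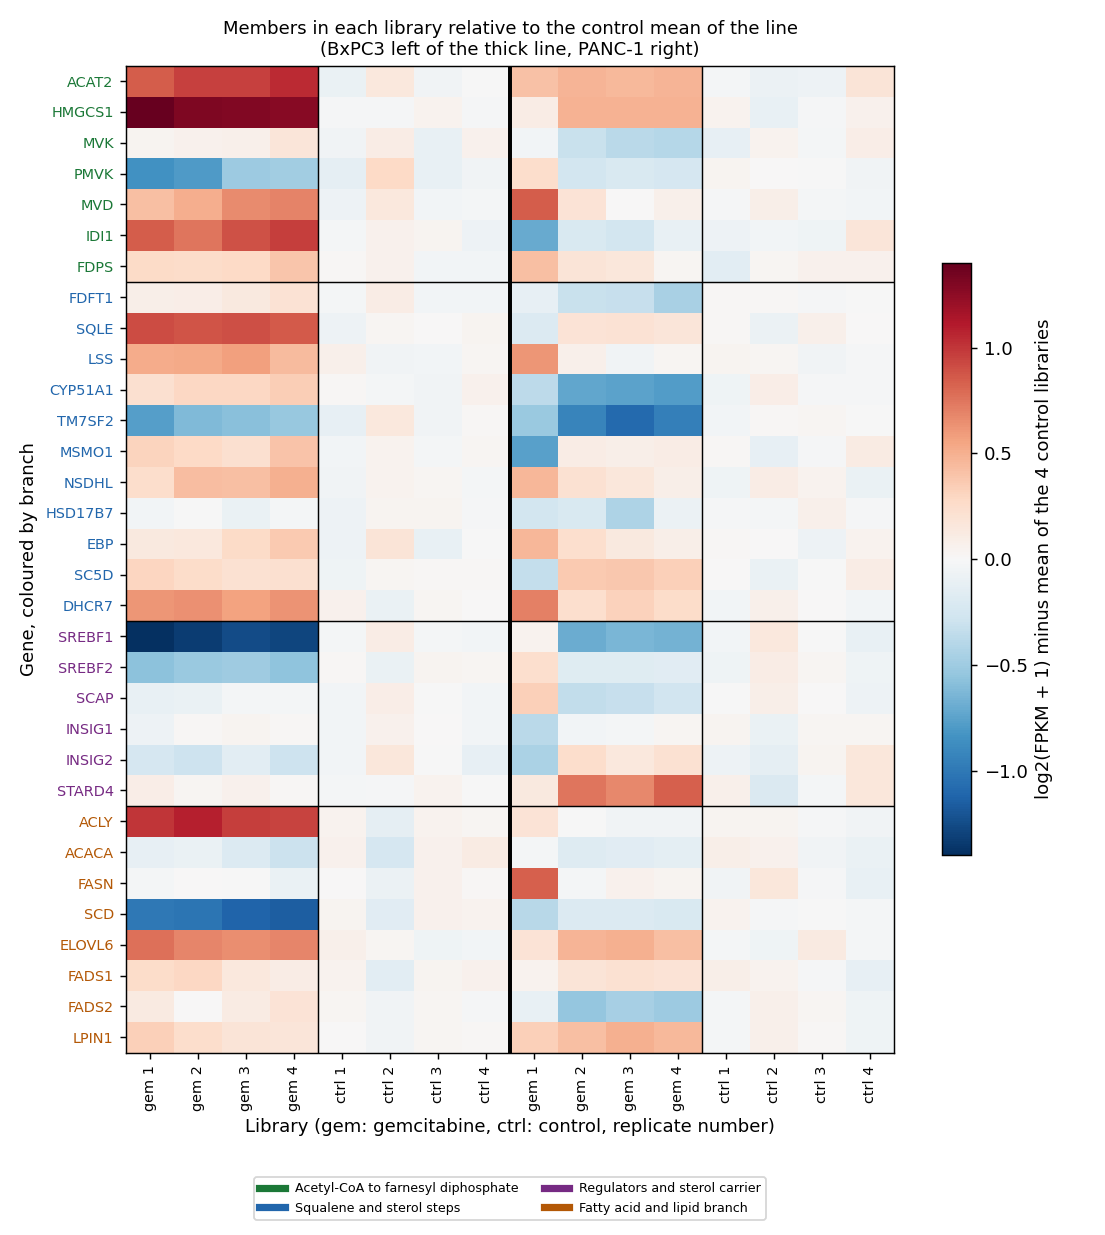
Each of the 32 genes (rows, coloured by branch) in each of the 16 libraries (columns), as log2(FPKM + 1) minus the mean of the 4 control libraries of the same line; red is higher and blue lower than that mean. HMGCS1 and ACLY are dark red and SREBF1 and SCD dark blue in all 4 BxPC3 gemcitabine libraries, and in PANC-1 the first gemcitabine library differs in colour from the other 3 for genes such as FASN and MSMO1.

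The first comparison asked how gemcitabine changed these genes in BxPC3. Cholesterol synthesis enzymes were mostly higher with gemcitabine, with HMGCS1, ACAT2, SQLE and IDI1 changed most. Both SREBP genes were lower, and the fatty acid branch split, with ACLY and ELOVL6 higher, SCD lower and no call for FASN. By limma, 17 members rose and 6 fell at an adjusted p under 0.05, 7 did not pass, and FADS2 and LPIN1 were below the filter of 1 FPKM in at least 4 libraries. Over all 12215 tested genes 37.3% rose and 36.1% fell, 73.4% in all, so a call as such says little about the members. Treated and control libraries did not overlap for 15 members that were higher and 6 that were lower, where 34.3% and 33.2% of all genes showed this, 67.5% in all. The members' median log2 change was 0.22, against 0.00 over all tested genes.

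In PANC-1, 6 members rose, 8 fell and 18 did not pass, where 20.7% of 12508 tested genes rose and 24.0% fell, 44.8% in all. The share of members called was again close to that of all genes, and their median log2 change was 0.03, against -0.02 over all genes. Groups did not overlap for 6 members that were higher and 7 that were lower, against 21.3% and 24.5% of all genes, 45.8% in all. Without gemcitabine replicate 1, 12 members rose, 13 fell and 7 did not pass, where 32.8% of all genes rose and 37.0% fell, 69.8% in all.

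**Figure D2:**
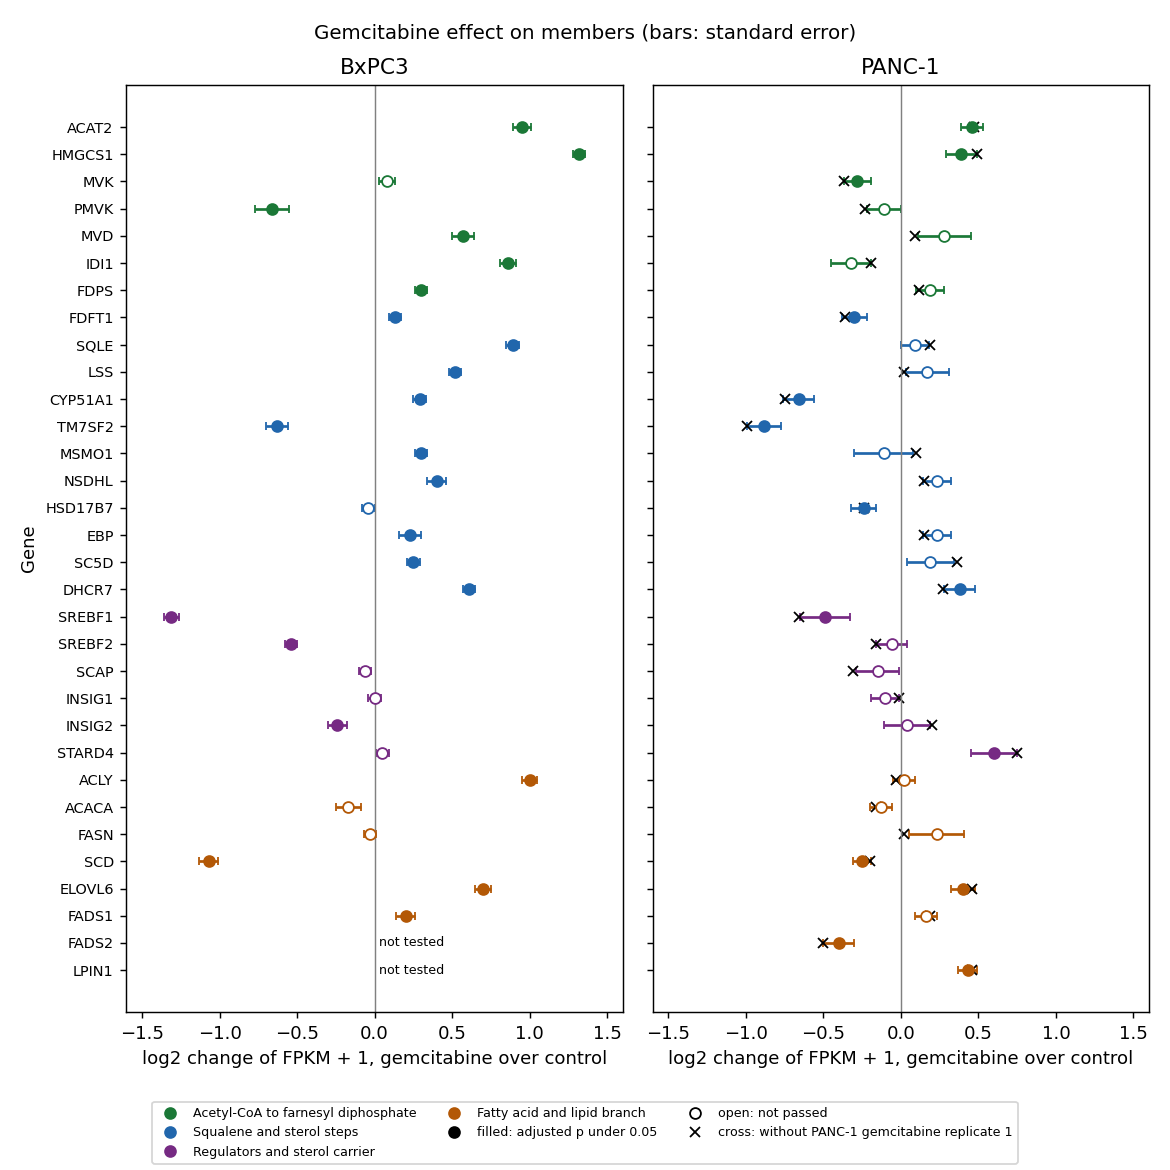
Gemcitabine effect on each of the 32 genes in BxPC3 (left) and PANC-1 (right) as log2 change on the FPKM + 1 scale with its standard error; filled points passed an adjusted p of 0.05, and crosses give the PANC-1 change without gemcitabine replicate 1. Most cholesterol genes lie right of 0 in BxPC3, where SREBF1 (-1.31) and SCD (-1.07) lie farthest left; in PANC-1 TM7SF2 (-0.88) and CYP51A1 (-0.66) do.

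Of the 7 genes from acetyl-CoA to farnesyl diphosphate, ACAT2, HMGCS1, MVD, IDI1 and FDPS rose in BxPC3, PMVK fell and MVK did not pass (median log2 change 0.57). HMGCS1 (ENSG00000112972, chromosome 5, 43289395 to 43313512, minus strand, GRCh38) joins acetoacetyl-CoA with acetyl-CoA to form HMG-CoA. It stood at 33.6, 30.8, 30.7 and 30.2 FPKM with gemcitabine and at 11.7, 11.7, 12.3 and 11.8 FPKM in controls. All 4 treated libraries lay far above all controls, and the means were 31.3 ± 1.52 and 11.9 ± 0.285 FPKM (SD, n = 4 each), a ratio of 2.63 (log2 change 1.32 ± 0.04 (SE) by limma, adjusted p = 2.27e-09). In PANC-1 the same gene had 6.23, 8.43, 8.45 and 8.40 FPKM with gemcitabine and 5.99, 5.27, 5.65 and 6.04 FPKM in controls. There the groups were also apart, by little in gemcitabine replicate 1 (log2 change 0.39 ± 0.10, limma adjusted p = 0.0104; without that library 0.49, adjusted p = 4.62e-06).

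ACAT2, the cytosolic thiolase that makes acetoacetyl-CoA, rose in both lines. In BxPC3 it had 7.85, 8.51, 8.54 and 9.13 FPKM with gemcitabine and 3.61, 4.43, 3.76 and 3.88 FPKM in controls. In PANC-1 the values were 7.13, 7.49, 7.37 and 7.49 FPKM with gemcitabine and 4.996, 4.77, 4.80 and 5.90 FPKM in controls. Groups did not overlap in either line, with log2 changes of 0.95 ± 0.06 (limma adjusted p = 3.09e-07) and 0.46 ± 0.07 (adjusted p = 0.000693). ACAT2 shares 9.2% of its exon bases with TCP1 on the opposite strand, and TCP1 was at 71.0 FPKM with gemcitabine and 42.7 FPKM in control in BxPC3, so reads of the pair cannot be told apart without knowing whether strand was counted.

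IDI1 (ENSG00000067064, chromosome 10, 1039152 to 1049170, minus strand), which interconverts the isoprenoid diphosphates, went separate ways in the lines. BxPC3 had 14.3, 13.3, 14.9 and 15.7 FPKM with gemcitabine and 7.35, 7.90, 7.73 and 7.11 FPKM in controls, with no overlap (log2 change 0.86 ± 0.05, limma adjusted p = 2.61e-07). PANC-1 had 4.23, 6.36, 6.14 and 6.96 FPKM with gemcitabine and 7.12, 7.30, 7.22 and 8.62 FPKM in controls. All treated PANC-1 libraries lay below all controls, but the change did not pass (-0.32 ± 0.13, limma adjusted p = 0.0719). It passed without gemcitabine replicate 1 (-0.19, adjusted p = 0.0208), without gemcitabine replicate 4 (-0.39, adjusted p = 0.045) and with each library's GC trend removed (-0.36, adjusted p = 0.000976).

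PMVK, which makes mevalonate diphosphate, was the one early enzyme that fell in BxPC3. It had 10.5, 10.9, 13.5 and 13.7 FPKM with gemcitabine, against 17.9, 24.0, 18.2 and 18.9 FPKM in controls. The lowest control lay above the highest treated library (log2 change -0.66 ± 0.11, limma adjusted p = 0.000327). PANC-1 held 39.5, 27.7, 28.5 and 28.1 FPKM with gemcitabine and 34.2, 33.4, 33.1 and 32.1 FPKM in controls. Gemcitabine replicate 1 was above all controls and the other 3 below them, so the change did not pass with it (-0.11, limma adjusted p = 0.439) and passed without it (-0.23, adjusted p = 7.37e-05).

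Of the remaining early enzymes, MVD, the decarboxylase that makes isopentenyl diphosphate, averaged 20.6 ± 1.95 FPKM with gemcitabine and 13.5 ± 1.0 FPKM in controls in BxPC3 (log2 change 0.57 ± 0.07, limma adjusted p = 4.23e-05). FDPS, which condenses isoprenoids to farnesyl diphosphate, averaged 23.0 ± 0.976 and 18.5 ± 0.630 FPKM there (0.30 ± 0.04, adjusted p = 8.43e-05). Neither passed in PANC-1, with replicate 1 or without it (0.09 for MVD and 0.12 for FDPS). Both passed as rises with all PANC-1 libraries kept and each library's GC trend removed (0.34 for MVD, limma adjusted p = 0.00117, and 0.18 for FDPS, adjusted p = 0.0105). MVK, the mevalonate kinase, had 7.26, 7.39, 7.46 and 8.07 FPKM with gemcitabine and 6.81, 7.64, 6.48 and 7.40 FPKM in BxPC3 controls, which overlapped, and did not pass (limma adjusted p = 0.196). The PANC-1 libraries had 4.28, 3.35, 3.15 and 3.08 FPKM with gemcitabine and 3.999, 4.61, 4.29 and 4.75 FPKM in controls. Only gemcitabine replicate 1 overlapped the controls, and the fall (-0.28 ± 0.09, limma adjusted p = 0.033) reached -0.37 without it. Leaving out 1 of 6 other libraries (control 2, 3 or 4, gemcitabine 2, 3 or 4) raised the adjusted p to between 0.0651 and 0.0913.

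Among the 11 squalene and sterol steps 9 rose in BxPC3, TM7SF2 fell and HSD17B7 did not pass (median log2 change 0.29). SQLE, the squalene epoxidase, had 20.4, 19.9, 20.3 and 19.6 FPKM with gemcitabine and 9.78, 10.5, 10.4 and 10.7 FPKM in BxPC3 controls. The treated level was 1.93 times the control level, with narrow spread in both groups (log2 change 0.89 ± 0.04, limma adjusted p = 1.52e-08). In PANC-1 SQLE had 15.9, 21.1, 21.2 and 20.7 FPKM with gemcitabine and 18.5, 17.2, 19.2 and 18.3 FPKM in controls. There replicate 1 was the lowest of all 8 libraries and the other 3 the highest (0.09 ± 0.09, limma adjusted p = 0.465; without replicate 1 0.19, adjusted p = 0.00154).

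DHCR7, the reductase that turns 7-dehydrocholesterol to cholesterol, rose in both lines. It had 43.4, 44.1, 41.9 and 43.8 FPKM with gemcitabine and 29.2, 26.2, 28.6 and 28.1 FPKM in BxPC3 controls. PANC-1 libraries showed 63.4, 45.3, 48.2 and 46.2 FPKM with gemcitabine and 37.3, 40.3, 38.7 and 37.3 FPKM in controls. Treated libraries lay above controls in each line, with log2 changes of 0.61 ± 0.04 (limma adjusted p = 4.54e-07) and 0.38 ± 0.10 (adjusted p = 0.0158; without replicate 1 0.27, adjusted p = 7.44e-05).

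CYP51A1 (ENSG00000001630, chromosome 7, 92112151 to 92134803, minus strand), the lanosterol demethylase, and FDFT1 (ENSG00000079459), the squalene synthase, were the 2 members called in opposite directions. CYP51A1 had 4.67, 4.92, 4.91 and 5.13 FPKM with gemcitabine and 3.89, 3.75, 3.67 and 4.06 FPKM in BxPC3 controls. PANC-1 libraries had 4.996, 3.68, 3.60 and 3.49 FPKM with gemcitabine and 6.39, 7.26, 6.64 and 6.63 FPKM in controls. The treated libraries thus lay above every control in BxPC3 and below every control in PANC-1 (log2 changes 0.29 ± 0.04, limma adjusted p = 0.000155, and -0.66 ± 0.10, adjusted p = 0.000633; without PANC-1 gemcitabine replicate 1 -0.75). The file also lists a second gene, AC000120.2, over 79.4% of the exon bases of CYP51A1, at 0 in all 4 groups, and its pseudogene copies reached at most 0.709 FPKM.

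FDFT1 had 51.3, 51.9, 53.3 and 55.7 FPKM with gemcitabine and 47.6, 52.1, 47.1 and 47.3 FPKM in BxPC3 controls. Control 2 lay among the treated libraries, and the small rise (0.13 ± 0.04, limma adjusted p = 0.0257) was lost when control 1, 3 or 4 or gemcitabine 3 or 4 was left out (adjusted p 0.0579 to 0.0721). In PANC-1 FDFT1 had 11.5, 9.88, 9.86 and 8.88 FPKM with gemcitabine and 12.7, 12.6, 12.4 and 12.5 FPKM in controls. Every treated PANC-1 library lay below the controls (-0.30 ± 0.08, limma adjusted p = 0.0103; without replicate 1 -0.36).

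TM7SF2, a sterol C14 reductase, fell in both lines. It had 9.94, 11.2, 11.4 and 11.9 FPKM with gemcitabine and 16.3, 19.7, 17.1 and 17.8 FPKM in BxPC3 controls. The PANC-1 values were 12.4, 9.09, 8.02 and 8.87 FPKM with gemcitabine and 17.7, 18.4, 18.6 and 18.2 FPKM in controls. No treated library reached a control in either line (log2 changes -0.63 ± 0.07, limma adjusted p = 1.4e-05, and -0.88 ± 0.11, adjusted p = 0.000276; without PANC-1 gemcitabine replicate 1 -0.99).

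The remaining sterol enzymes were LSS, NSDHL, MSMO1, SC5D, EBP and HSD17B7. LSS, the lanosterol synthase, had 12.4, 12.4, 12.9 and 11.7 FPKM with gemcitabine and 8.78, 7.98, 8.05 and 8.48 FPKM in controls, a rise with no overlap (log2 change 0.52 ± 0.04, limma adjusted p = 2.29e-06). NSDHL, a sterol dehydrogenase, MSMO1, the sterol C4-methyl oxidase, SC5D, a sterol desaturase, and EBP, a sterol isomerase, rose by 0.40, 0.30, 0.25 and 0.23. Of these only EBP overlapped between the groups (limma adjusted p = 0.0139, and 0.0527 with no filter on low values). In the main fit for PANC-1, with all libraries and the GC trend left in, none of these 5 passed. NSDHL and EBP passed there as rises with TPM scaling (0.25 each, limma adjusted p = 0.0354 and 0.0283). They also passed in PANC-1 with limma-voom on recovered reads (0.26 each, adjusted p = 0.0494 and 0.0427). SC5D there had 11.2, 18.7, 18.9 and 18.2 FPKM with gemcitabine and 14.3, 13.4, 14.2 and 15.4 FPKM in controls. Replicate 1 was below all controls and the other 3 above them, and without it SC5D (0.36, limma adjusted p = 3.43e-05), NSDHL (0.15, adjusted p = 0.0216) and EBP (0.15, adjusted p = 0.0107) rose. HSD17B7, a sterol ketone reductase, had 2.17, 2.25, 1.81 and 2.56 FPKM with gemcitabine and 2.72, 2.70, 2.95 and 2.73 FPKM in PANC-1 controls. Its groups did not overlap, and the fall (-0.24 ± 0.08, limma adjusted p = 0.0276) was lost when any 1 of 6 libraries was left out (control 1, 2, 3 or 4, gemcitabine 2 or 3, adjusted p 0.0516 to 0.0797) but not without gemcitabine 1 (adjusted p = 0.0134).

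Together, the 18 enzymes from ACAT2 to DHCR7 held 14 that rose and 2 that fell in BxPC3 (median log2 change 0.30), where 37.3% of all tested genes rose and 36.1% fell. PANC-1 had 3 that rose and 5 that fell (median 0.13), against 20.7% and 24.0% of all tested genes. Without gemcitabine replicate 1 the counts were 7 and 7 (median 0.10), against 32.8% and 37.0%.

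**Figure D3:**
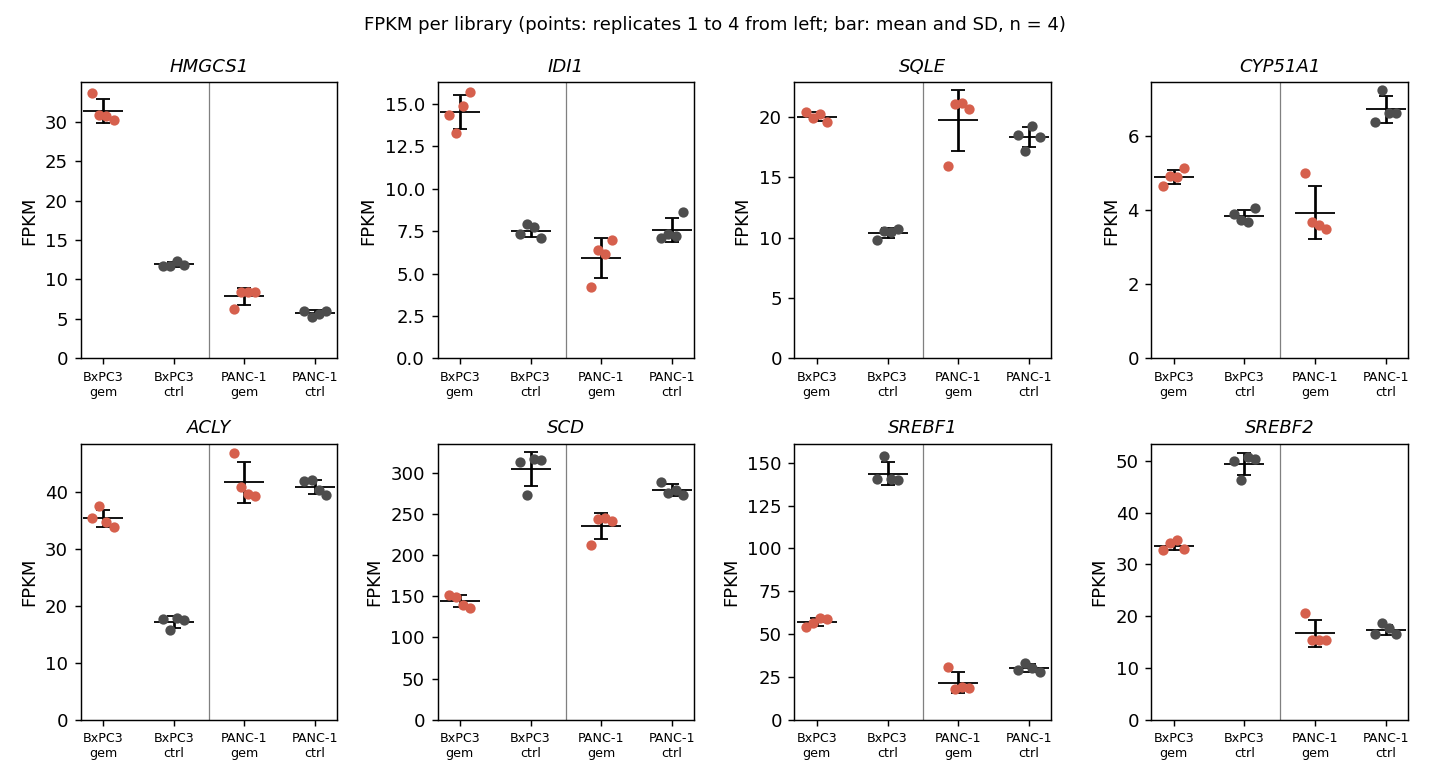
FPKM of 8 members in every library, with the 4 replicates of a group from left to right and the group mean and SD (n = 4) as bars; gemcitabine is red and control grey, BxPC3 left and PANC-1 right of the line in each panel. HMGCS1, IDI1, SQLE and ACLY stand at 1.93 to 2.63 times the control mean with gemcitabine in BxPC3, SCD, SREBF1 and SREBF2 are lower there, and CYP51A1 is higher in BxPC3 and lower in PANC-1.

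Of the 6 regulators none rose in BxPC3, while SREBF1, SREBF2 and INSIG2 fell (median log2 change -0.15). SREBF1 (ENSG00000072310, chromosome 17, 17810399 to 17837002, minus strand) had 54.1, 56.6, 59.6 and 58.5 FPKM with gemcitabine and 140.4, 154.1, 140.4 and 139.7 FPKM in BxPC3 controls. Treated cells held 0.398 of the control level, with a wide gap between the groups (57.2 ± 2.40 and 144 ± 6.995 FPKM, log2 change -1.31 ± 0.05, limma adjusted p = 6.35e-09). In PANC-1 SREBF1 had 31.1, 18.1, 19.0 and 18.7 FPKM with gemcitabine and 29.2, 33.3, 30.1 and 28.0 FPKM in controls. Replicate 1 lay within the controls and the other 3 far below them (-0.49 ± 0.16, limma adjusted p = 0.0346; without replicate 1 -0.66, adjusted p = 1.01e-06). Leaving out any 1 of the other 7 libraries instead gave adjusted p-values of 0.0582 to 0.0914. The counts do not separate the SREBP-1a and SREBP-1c transcripts, and 6.9% of the exon bases of SREBF1 are shared with RAI1 on the opposite strand.

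SREBF2 (ENSG00000198911, chromosome 22, 41833079 to 41907308, plus strand) had 32.7, 34.1, 34.7 and 33.0 FPKM with gemcitabine and 50.02, 46.3, 50.8 and 50.3 FPKM in BxPC3 controls. The groups were apart (log2 change -0.54 ± 0.04, limma adjusted p = 1.01e-06). The PANC-1 libraries had 20.7, 15.3, 15.4 and 15.5 FPKM with gemcitabine and 16.6, 18.7, 17.7 and 16.6 FPKM in controls. Replicate 1 was above and the other 3 below every control (-0.06, limma adjusted p = 0.649; without it -0.16, adjusted p = 0.00621).

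Within a library, the SREBF1 to SREBF2 ratio of FPKM was 1.65, 1.66, 1.71 and 1.77 with gemcitabine and 2.81, 3.33, 2.76 and 2.78 in controls of BxPC3. In PANC-1 it was 1.5, 1.18, 1.23 and 1.21 with gemcitabine and 1.75, 1.78, 1.70 and 1.69 in controls. The ratio was lower in every treated library than in every control of its line, replicate 1 of PANC-1 included.

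INSIG1, which retains SCAP in the endoplasmic reticulum and is itself an SREBP target, had 38.2, 40.5, 41.2 and 40.6 FPKM with gemcitabine and 39.2, 42.1, 40.4 and 39.1 FPKM in BxPC3 controls. The groups lay over each other (limma adjusted p = 0.959), although TPM scaling moved the change to 0.08 (adjusted p = 0.0372). In PANC-1 INSIG1 did not pass with replicate 1 (-0.10, adjusted p = 0.399) or without it (-0.01, adjusted p = 0.792). INSIG2, its relative, had 7.60, 7.25, 8.13 and 7.29 FPKM with gemcitabine and 8.84, 10.3, 9.07 and 8.36 FPKM in BxPC3 controls. It fell without overlap (-0.24 ± 0.06, limma adjusted p = 0.00465). In PANC-1 INSIG2 passed only without replicate 1, and then as a rise (0.20, limma adjusted p = 0.0163). SCAP did not pass in BxPC3 (20.3 ± 0.587 and 21.2 ± 1.02 FPKM) and fell in PANC-1 only without replicate 1 (-0.31, adjusted p = 5.56e-05).

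STARD4, which carries cholesterol between membranes, was the one member of this group that rose in PANC-1. It had 1.38, 2.64, 2.46 and 2.86 FPKM with gemcitabine and 1.28, 0.880, 1.12 and 1.41 FPKM in PANC-1 controls. Replicate 1 lay within the controls and the other 3 above them (log2 change 0.60 ± 0.15, limma adjusted p = 0.0109; without it 0.75, adjusted p = 1.36e-05). In BxPC3 STARD4 had 7.21, 6.85, 7.03 and 6.78 FPKM with gemcitabine and 6.57, 6.58, 6.96 and 6.68 FPKM in controls, and did not pass.

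In the fatty acid and lipid branch ACLY, ELOVL6 and FADS1 rose in BxPC3, SCD fell, ACACA and FASN did not pass and FADS2 and LPIN1 were below the filter (median log2 change 0.08). ACLY (ENSG00000131473, chromosome 17, 41866908 to 41930542, minus strand), which cleaves citrate to cytosolic acetyl-CoA, had 35.5, 37.5, 34.7 and 33.9 FPKM with gemcitabine and 17.8, 15.7, 17.9 and 17.5 FPKM in BxPC3 controls. Treated cells held 2.06 times the control level (log2 change 1.0 ± 0.05, limma adjusted p = 5.37e-08). In PANC-1 ACLY had 47.0, 40.9, 39.6 and 39.4 FPKM with gemcitabine and 42.0, 42.1, 40.3 and 39.5 FPKM in controls. Those groups overlapped (0.02 ± 0.07, limma adjusted p = 0.81; without replicate 1 -0.03, adjusted p = 0.392).

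SCD (ENSG00000099194, chromosome 10, 100347124 to 100364834, plus strand), the desaturase that makes oleate, fell in both lines. It had 151, 149, 139 and 136 FPKM with gemcitabine and 313, 273, 317 and 315 FPKM in BxPC3 controls. PANC-1 held 212, 244, 245 and 241 FPKM with gemcitabine and 289, 276, 278 and 273 FPKM in controls. All treated libraries lay below all controls of their line, at 0.473 of the control level in BxPC3 (log2 change -1.07 ± 0.06, limma adjusted p = 1.39e-07) and 0.844 in PANC-1 (-0.25 ± 0.06, adjusted p = 0.00909; without gemcitabine replicate 1 -0.20).

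FASN, the fatty acid synthase, averaged 56.5 ± 1.80 FPKM with gemcitabine and 57.7 ± 2.44 FPKM in BxPC3 controls and did not pass (limma adjusted p = 0.532). The PANC-1 libraries had 61.2, 33.3, 35.4 and 34.8 FPKM with gemcitabine and 32.8, 38.1, 33.6 and 31.6 FPKM in controls. Only replicate 1 stood outside the range of the others (0.23, limma adjusted p = 0.346; without it 0.02, adjusted p = 0.729; with all libraries and the GC trend removed 0.32, adjusted p = 0.00126). The SCD to FASN ratio within a library was 2.42 to 2.68 with gemcitabine and 5.01 to 5.42 in controls of BxPC3, and the ACLY to FASN ratio 0.602 to 0.648 and 0.289 to 0.307. In PANC-1 both ratios overlapped between the groups, SCD to FASN at 3.47 to 7.32 with gemcitabine and 7.25 to 8.81 in controls, and ACLY to FASN at 0.768 to 1.23 and 1.11 to 1.28. ACACA, the acetyl-CoA carboxylase, averaged 7.64 ± 0.552 FPKM with gemcitabine and 8.78 ± 1.03 FPKM in BxPC3 controls (limma adjusted p = 0.0718). There ACACA passed as a fall without control 2 (-0.25, limma adjusted p = 0.00152). With all BxPC3 libraries it passed with the GC trend removed (-0.2, adjusted p = 0.0457) and with limma-voom on recovered reads (-0.2, adjusted p = 0.0474). In PANC-1 ACACA fell without gemcitabine replicate 1 (-0.16, limma adjusted p = 0.0115) and with the GC trend removed (-0.15, adjusted p = 0.0295). It also fell with the replicate block and the GC trend removed (-0.15, adjusted p = 0.0258), and did not pass otherwise.

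ELOVL6, which elongates palmitate, rose in both lines. It had 6.13, 5.73, 5.60 and 5.72 FPKM with gemcitabine and 3.41, 3.26, 3.01 and 3.09 FPKM in BxPC3 controls. PANC-1 values were 3.07, 3.94, 3.99 and 3.76 FPKM with gemcitabine and 2.48, 2.39, 2.87 and 2.47 FPKM in controls. The groups were apart in both lines (log2 changes 0.70 ± 0.05, limma adjusted p = 3.69e-07, and 0.40 ± 0.08, adjusted p = 0.00361; without PANC-1 gemcitabine replicate 1 0.46).

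FADS1 and FADS2 encode the desaturases of polyunsaturated fatty acids. On chromosome 11 FADS1 lies within the annotated span of FADS2, and the 2 share 490 exon bases on opposite strands (4.4% of those of FADS2). Reads of that stretch cannot be told apart without knowing whether strand was counted. This limits FADS2 most in BxPC3, where FADS1 stood far higher. FADS1 had 10.8, 11.1, 9.96 and 9.69 FPKM with gemcitabine and 9.25, 7.98, 9.19 and 9.34 FPKM in BxPC3 controls. It rose by a small margin (0.20 ± 0.06, limma adjusted p = 0.0121). In the main fit for PANC-1 FADS1 did not pass with replicate 1 (0.16, adjusted p = 0.0783) and rose without it (0.19, adjusted p = 0.00343). With all PANC-1 libraries it passed with limma-voom on recovered reads (0.19, adjusted p = 0.0398) and with the GC trend removed (0.15, adjusted p = 0.0413). FADS2 stayed near 1 FPKM in BxPC3, with 0.974, 0.814, 0.947 and 1.06 FPKM with gemcitabine and 0.836, 0.748, 0.843 and 0.789 FPKM in controls. Its PANC-1 values were 17.5, 12.6, 13.3 and 12.9 FPKM with gemcitabine and 18.4, 19.8, 19.1 and 17.9 FPKM in controls, a fall with no overlap (-0.40 ± 0.10, limma adjusted p = 0.0098; without replicate 1 -0.50).

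LPIN1, a phosphatidate phosphatase, had 5.82, 6.23, 6.60 and 6.38 FPKM with gemcitabine and 4.28, 4.65, 4.48 and 4.19 FPKM in PANC-1 controls. It rose there with no overlap (0.43 ± 0.06, limma adjusted p = 0.00038; without replicate 1 0.46). In BxPC3 its level was low, with 0.854, 0.747, 0.667 and 0.657 FPKM with gemcitabine and 0.476, 0.423, 0.502 and 0.488 FPKM in controls, also without overlap. The filter left it out there, and with no filter the change was 0.23 (limma adjusted p = 0.00584).

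Seen across the lines, ACAT2, HMGCS1, DHCR7 and ELOVL6 rose in both and TM7SF2, SREBF1 and SCD fell in both. Without PANC-1 gemcitabine replicate 1 these lists grew to 9 and 5 members, while calls over all tested PANC-1 genes grew from 44.8% to 69.8%. IDI1 then joined CYP51A1 and FDFT1 among those higher in BxPC3 and lower in PANC-1, and INSIG2 was lower in BxPC3 and higher in PANC-1. FASN and INSIG1 passed in neither line, with or without that library; with the GC trend removed FASN passed in PANC-1 and with TPM scaling INSIG1 passed in BxPC3.

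The next comparison tested whether the gemcitabine effect differed between the lines, as an interaction over all 16 libraries (effect in BxPC3 minus effect in PANC-1). It was higher in BxPC3 for 10 members, lower for 6 and not called for 16, where 26.6% of 14134 tested genes were higher and 25.2% lower, 51.8% in all. The median difference over the members was 0.19, against 0.02 over all genes. Among the 18 cholesterol enzymes 7 were higher and 1, PMVK, lower (median 0.32), or 15 and 1 without PANC-1 gemcitabine replicate 1 (median 0.41). Over all tested genes the calls also grew without that library, to 33.1% higher and 31.9% lower, 65.0% in all. Among the regulators 3 were lower and none higher (median -0.38). Without that library 4 were lower, INSIG2 among them (-0.44), and SCAP was higher (0.25, limma adjusted p = 0.00136; median -0.41). With TPM scaling 15 of all members were higher and 5 lower, where 24.1% and 19.3% of all tested genes were called, 43.4% in all.

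IDI1 differed most, by 1.19 ± 0.15 (log2, SE, limma adjusted p = 4.73e-06). ACLY (0.98 ± 0.09), CYP51A1 (0.94 ± 0.11), HMGCS1 (0.93 ± 0.11) and SQLE (0.80 ± 0.10) followed, with limma adjusted p-values between 9.93e-08 and 8.58e-06. FADS2 (0.51), ACAT2 (0.49), FDFT1 (0.43), MVK (0.36) and ELOVL6 (0.30) were also higher in BxPC3. SREBF1 and SCD each had a difference of -0.83 (limma adjusted p = 0.000928 and 9.02e-07). PMVK and STARD4 (-0.55 each), SREBF2 (-0.48) and LPIN1 (-0.19) were lower as well. For SCD and SREBF1, which fell in both lines, the difference is thus one of size, and for IDI1, CYP51A1 and FDFT1 the fitted changes had opposite signs, as they had for MVK (0.08 in BxPC3 and -0.28 in PANC-1) and FADS2 (0.11 with no filter and -0.40), which were not called in BxPC3. The LPIN1 difference turned to 0.04 with a pseudocount of 0.1 (limma adjusted p = 0.821) and to 0.08 with limma-voom on recovered reads (adjusted p = 0.605); its BxPC3 level lies below the pseudocount of 1. Without PANC-1 gemcitabine replicate 1 the counts were 19 higher and 7 lower, where 33.1% and 31.9% of all genes were called, 65.0% in all, and all 16 differences kept their sign and call.

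**Figure D4:**
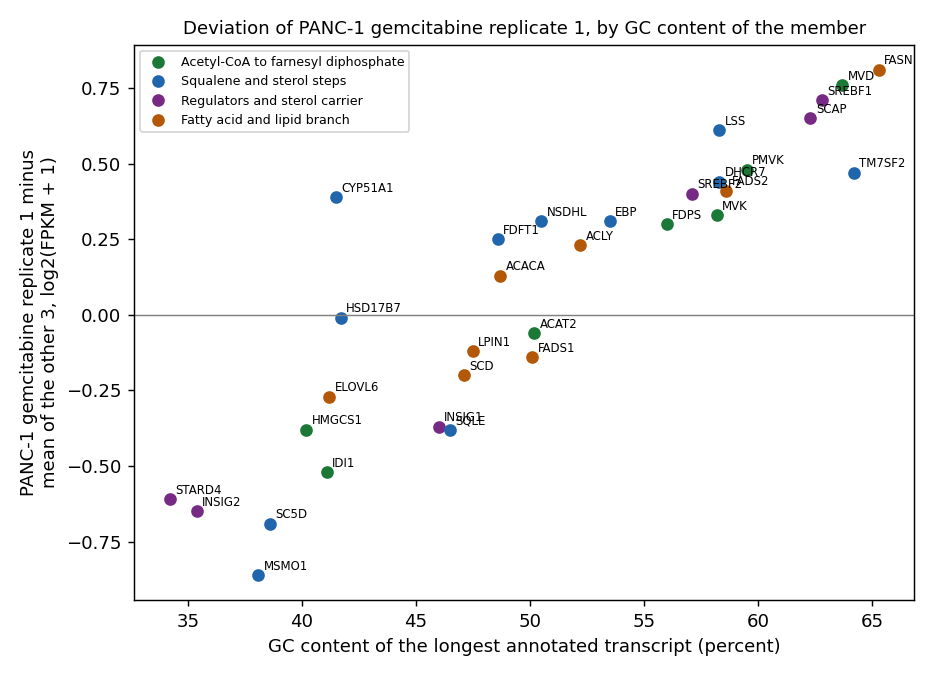
Deviation of PANC-1 gemcitabine replicate 1 from the mean of the other 3 libraries of its group, in log2(FPKM + 1), against the GC content of the longest annotated transcript, for each of the 32 genes, coloured by branch. FASN at 65.3% GC lies highest (0.81) and MSMO1 at 38.1% lowest (-0.86), and CYP51A1 at 41.5% lies above the trend (0.39).

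Among the members the deviation of that library followed GC content. Of 17 genes with at least 50% GC, 15 were higher in replicate 1 than in the mean of the other 3 libraries, and of 15 genes below 50%, 12 were lower. Over the 32 genes, which share the library and its depth, Pearson's r was 0.90 and Spearman's rho 0.93, given as a description. FASN, MVD and SREBF1 were among the highest and MSMO1, SC5D and INSIG2 among the lowest. ACAT2, at 50.2% GC, deviated little, and its change in PANC-1 was 0.47 without the library. After removal of every GC trend, and with all 8 PANC-1 libraries kept, 14 members rose and 11 fell in PANC-1, where 29.3% of the 12508 tested genes rose and 36.8% fell, 66.1% in all. The 14 calls with all libraries described above were among them. MVD (0.34, limma adjusted p = 0.00117), FASN (0.32, adjusted p = 0.00126), NSDHL, EBP, FDPS, LSS, SC5D and FADS1 were the other members that rose in that fit, and IDI1 (-0.36, adjusted p = 0.000976), ACACA and PMVK the others that fell. SQLE, SREBF2, SCAP and INSIG2, which passed without replicate 1, did not pass in it. Each trend was fitted to the deviation of a library from the mean of all treated and control libraries. A GC-linked effect of gemcitabine would therefore be removed as well. MVD (0.09) and FASN (0.02) did not pass without replicate 1.

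The levels of the genes in untreated cells are a description, since the 2 lines were normalised in separate tables. SCD was the most abundant member per transcript length in both lines, at 304 ± 21.1 FPKM in BxPC3 controls and 279 ± 6.92 FPKM in PANC-1 controls (SD, n = 4 each). In BxPC3 SREBF1 (144 ± 6.995 FPKM), FASN (57.7 ± 2.44 FPKM) and then SREBF2 and FDFT1 followed, the last pair with overlapping ranges. PANC-1 had ACLY (41.0 ± 1.28 FPKM), DHCR7 (38.4 ± 1.43 FPKM), FASN (34.0 ± 2.83 FPKM) and PMVK (33.2 ± 0.863 FPKM), each overlapping the next. The lowest were LPIN1 in BxPC3 (0.472 ± 0.0344 FPKM) and STARD4 in PANC-1 (1.17 ± 0.227 FPKM). The widest gaps between the lines were for FADS2 (0.804 FPKM in BxPC3 and 18.8 FPKM in PANC-1), LPIN1 (0.472 and 4.40 FPKM), STARD4 (6.70 and 1.17 FPKM), SREBF1 (144 and 30.1 FPKM) and SC5D (3.08 and 14.3 FPKM).

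**Figure D5:**
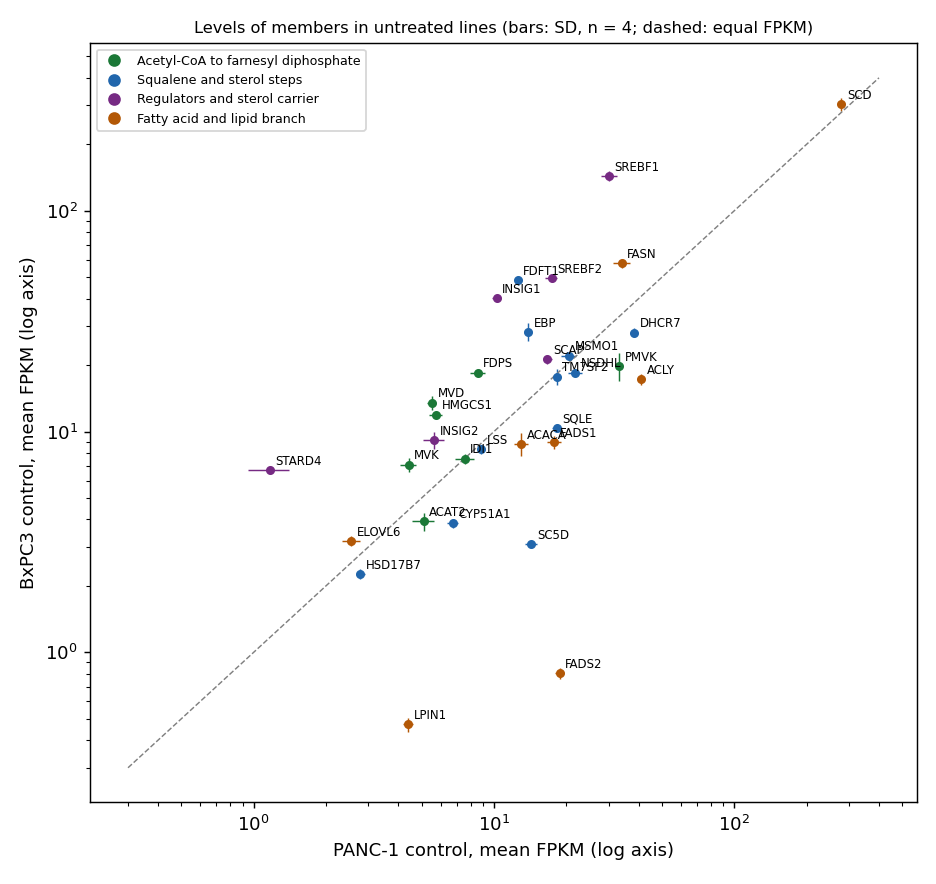
Mean FPKM of each of the 32 genes in untreated BxPC3 (vertical) against untreated PANC-1 (horizontal), both on log axes, with SD bars (n = 4) and the line of equal values dashed. SCD lies near the line at the top right, SREBF1 and STARD4 lie above it, and FADS2, LPIN1 and SC5D below it.

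Genes of neighbouring pathways, from lists that hold none of the 32, are given as counts of calls, to be read against the 37.3% of all tested genes that rose and 36.1% that fell in BxPC3, and the 20.7% and 24.0% in PANC-1. Of 8 genes that process SREBPs, 2 rose and 5 fell in BxPC3 and 0 rose and 3 fell in PANC-1. MBTPS1, the site-1 protease that cuts SREBPs, fell in both (log2 changes -0.31 and -0.32, limma adjusted p = 1.68e-05 and 0.000806), as did ERLIN2, part of the complex that degrades sterol sensors (-0.67 and -0.31). Of 13 genes that use isoprenoids, 5 rose and 2 fell in BxPC3 and 1 fell in PANC-1. PDSS1, which builds the coenzyme Q tail (0.83), and ICMT, which methylates prenylated proteins (0.49), rose in BxPC3 and did not pass in PANC-1.

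Of 7 tested genes of cholesterol efflux, esterification and the LXR receptors, 1 rose and 5 fell in BxPC3 and 1 rose and 2 fell in PANC-1. NR1H3, which encodes LXR-alpha, an activator of SREBF1 in other tissues, averaged 0.931 ± 0.158 FPKM with gemcitabine and 3.58 ± 0.403 FPKM in BxPC3 controls (log2 change -1.24 ± 0.08, limma adjusted p = 2.7e-07). It did not pass in PANC-1 with all libraries (-0.14, adjusted p = 0.294; without replicate 1 -0.23, adjusted p = 0.00125). MYLIP, an LXR target, fell in both (-0.94 and -0.52). Of 5 tested genes of cholesterol release and membrane transfer, 1 rose and 3 fell in BxPC3, and 1 rose and 1 fell in PANC-1. NPC2, a sterol carrier of the lysosome, fell in both (-0.56 and -0.24), and GRAMD1A, a sterol transfer protein, fell in BxPC3 (-0.30). In PANC-1 GRAMD1A did not pass with all libraries (-0.33, limma adjusted p = 0.0676) and fell without replicate 1 (-0.46, adjusted p = 3.94e-05).

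Fatty acid supply and elongation held 4 genes that rose and 6 that fell of 12 tested in BxPC3, and 3 and 3 of 13 in PANC-1. MID1IP1, an activator of acetyl-CoA carboxylase, fell in both (-1.20 and -0.60), and ME1, which makes NADPH, rose in BxPC3 (0.99 ± 0.05, limma adjusted p = 7.49e-08). In PANC-1 ME1 did not pass with all libraries (0.34, limma adjusted p = 0.0577) and rose without replicate 1 (0.48, adjusted p = 2.09e-06). Of the acyl-CoA synthetases, which activate fatty acids, 1 rose and 2 fell of 4 in BxPC3 and 1 rose and 1 fell of 3 in PANC-1. ACSL3 fell in both (-0.58 and -0.42), and ACSL5 rose in BxPC3 (0.40) and was below the filter in PANC-1. Of 11 genes of glycerolipid synthesis 4 rose and 7 fell in BxPC3 and 2 rose and 2 fell in PANC-1. PCYT2, of phosphatidylethanolamine synthesis, was higher in both (0.50 and 0.44) and AGPAT1, which makes phosphatidate, lower in BxPC3 (-0.58). In PANC-1 AGPAT1 did not pass with all libraries (-0.12, limma adjusted p = 0.289) and fell without replicate 1 (-0.2, adjusted p = 0.00146). Fatty acid oxidation had 1 rise and 7 falls among 10 tested genes in BxPC3 and 1 rise and 4 falls in PANC-1. The mitochondrial dehydrogenase ACADM was lower in BxPC3 (-0.55). In PANC-1 ACADM did not pass with all libraries (-0.28, limma adjusted p = 0.0972) and fell without replicate 1 (-0.16, adjusted p = 0.0336).

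Lipid droplet and lipolysis genes, 6 in all, had 3 rises and 3 falls in BxPC3 and 4 rises and 1 fall in PANC-1. PLIN2, which coats lipid droplets, had 16.5, 16.02, 16.8 and 15.7 FPKM with gemcitabine and 6.35, 6.33, 6.24 and 6.13 FPKM in PANC-1 controls. That rise was without overlap (log2 change 1.25 ± 0.05, limma adjusted p = 3.47e-07), while in BxPC3 PLIN2 fell (-0.34 ± 0.06, adjusted p = 0.000309). HILPDA, an inhibitor of droplet lipolysis, had 5.11, 5.08, 4.34 and 4.25 FPKM with gemcitabine and 13.7, 12.8, 13.5 and 13.9 FPKM in PANC-1 controls (-1.35 ± 0.07, limma adjusted p = 1.21e-06). It fell less in BxPC3 (-0.18), and the difference between the lines was 1.17 ± 0.09 (adjusted p = 3.25e-08). Without PANC-1 gemcitabine replicate 1 the PANC-1 counts of rises and falls were 2 and 4 for SREBP processing and 1 and 3 for isoprenoid use. They were 2 and 4 for efflux and LXR, 1 and 3 for cholesterol release and transfer, and 4 and 5 for fatty acid supply. Acyl-CoA synthetases had 2 and 1, glycerolipids 4 and 4, oxidation 2 and 6, and lipid droplets 4 and 2. In that fit 32.8% of all tested genes rose and 37.0% fell. The PANC-1 calls named for single list genes all held without it.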

How the data were processed

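RNA of the 16 libraries was isolated with a column kit and poly-A enriched, per the labels' protocols. The authors deposited FPKM per gene and library in 1 table per line, with the gene length in bases, per the file headers. CASAVA and HISAT2 are named without versions, and the mouse build mm10, per the submitters' processing notes. All 58735 identifiers are human and 58724 have the GENCODE 29 start and end, so coordinates are GRCh38. Neither the read counter nor its strand setting is given in the sources used here. FPKM times length gave whole reads for 100.0% of values (tolerance 0.02 reads). What 3 reads are worth covers counting error alone, because PCR duplicates are no independent molecules.

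Each line was tested in R 4.3.3 with limma 3.58.1 (its trend and robust options) after log2(FPKM + 1). Genes reaching 1 FPKM in 4 or more libraries entered, and 2-sided p-values were adjusted over all of them (Benjamini-Hochberg, threshold 0.05); the difference was an interaction over 16 libraries. Folds are ratios of mean FPKM. Tabulation used pandas 2.3.3. Replicate libraries were compared in pairs in R on recovered reads (chi-square per degree of freedom at least 2.074, so none repeats another). Correlations used scipy 1.17.1, and plots were made with matplotlib 3.10.9. Promoters are RefSeq's. All 32 members are described; values per library are given for members called in opposite directions, for called differences, and for up to 4 largest called changes per branch and line, with others added. Up to 2 genes per other list are named, by smallest p. Members and lists were chosen with earlier results of these data known. Tried besides were limma-voom on recovered reads, a replicate block, removal of each library's GC trend, TPM and median-ratio scaling, protein-coding genes alone, plain limma, a pseudocount of 0.1, no filter, a minimum log2 change of 1, and the fit without each library. Some genes of the pathway and of the other lists are not reported here.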

Additional observations from a re-analysis of the deposited data

Results flagged for a closer look

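Within each group of 4 libraries, a library was marked where its gap to the nearest other, divided by the range of the group, passed Dixon's critical value for 4 values. Of 128 groups (32 genes in 4 groups each), 28 were marked, where chance gives about 1 in 20. The groups share libraries, so they are not independent. The share marked over all genes was not computed, so the number does not show whether the members differ from other genes. Of the 28 marks 15 were PANC-1 gemcitabine replicate 1. It was the highest for 9 genes, with ratios of 0.975 for SREBF2, 0.937 for SREBF1, 0.929 for PMVK, 0.926 for FASN, 0.906 for SCAP, 0.872 for CYP51A1, 0.865 for FADS2, 0.850 for LSS and 0.839 for DHCR7. It was the lowest for 6, with ratios of 0.979 for HMGCS1, 0.962 for MSMO1, 0.917 for SC5D, 0.903 for SQLE, 0.891 for SCD and 0.840 for INSIG1. BxPC3 control replicate 2 was highest for SREBF1 (0.950), FDFT1 (0.899) and PMVK (0.832), and lowest for SCD (0.912), FADS1 (0.888), ACACA (0.854) and ACLY (0.836). The remaining marks were BxPC3 control 1 for SC5D (0.943, lowest) and control 3 for HMGCS1 (0.908, highest), and in PANC-1 controls IDI1 (0.879, replicate 4, highest), FDPS (0.863, replicate 1, lowest), HSD17B7 (0.887, replicate 3, highest) and INSIG1 (0.898, replicate 2, lowest).

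The gemcitabine effect differed between the lines for 16 members by the limma interaction (log2, effect in BxPC3 minus effect in PANC-1). The difference was positive for IDI1 (1.19), ACLY (0.98), CYP51A1 (0.94), HMGCS1 (0.93), SQLE (0.80), FADS2 (0.51), ACAT2 (0.49), FDFT1 (0.43), MVK (0.36) and ELOVL6 (0.30). It was negative for SREBF1 (-0.83), SCD (-0.83), PMVK (-0.55), STARD4 (-0.55), SREBF2 (-0.48) and LPIN1 (-0.19).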

How the results depend on the processing

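Leaving out 1 library at a time, members that rose numbered 16 to 17 in BxPC3, 6 to 12 in PANC-1 and 10 to 19 for the difference, and those that fell 6 to 7, 5 to 13 and 5 to 7. The highest PANC-1 counts (12 and 13) came without gemcitabine replicate 1, and 5 that fell were left without control 2, 3 or 4 or gemcitabine 2 or 3. An absolute log2 change of at least 1 left 2 that rose and 2 that fell in BxPC3, 0 and 0 in PANC-1, and 1 and 0 for the difference. No share of all tested genes is given for this threshold, the replicate block, no filter or the fits without other single libraries. Those counts therefore describe how stable the calls were and not whether the members stand out from other genes. In PANC-1 14 rose with the GC trend removed and 13 with the replicate block and the GC trend removed, and 5 fell with no filter on low values, which adds genes near 0 to the fit. Among single genes, 525 of 540 values in BxPC3, 511 of 576 in PANC-1 and 790 of 832 for the difference kept their call. Direction was compared only where the main or the other fit made a call. Uncalled changes could turn sign and still be counted, as MSMO1 in PANC-1 did (-0.11, and 0.1 without gemcitabine replicate 1). Among changes called in either fit, the sign turned for INSIG1 in BxPC3 with TPM scaling (0.08). That scaling moved the median log2 change of all tested genes from 0.004 to 0.077. The sign also turned for the LPIN1 difference with a pseudocount of 0.1 (0.04) and with limma-voom (0.08). The cause of these turns was not tested. Replicate numbers did not pair the libraries: deviations of same-numbered libraries correlated between -0.376 and 0.189. With the replicate block 16 rose and 6 fell in BxPC3, 6 and 7 in PANC-1, and 10 and 5 for the difference. Under the block FDFT1 in BxPC3, MVK and HSD17B7 in PANC-1 and the LPIN1 difference no longer passed, and IDI1 in PANC-1 did (limma adjusted p = 0.0482). Levels near 1 FPKM, as for FADS2 and LPIN1 in BxPC3, limit what the log2(FPKM + 1) scale can show.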
